A study of Mus musculus with 4 samples.

Results

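The genes described here encode subunits of the receptors for the 2 main fast transmitters of the brain, GABA and glutamate. The 39 subunit genes were taken by name from the gene names listed for the array's non-control probes, and each was represented by its brightest measured probe. They comprise 16 GABA receptor subunits and 23 glutamate receptor subunits, out of 27241 gene names on the array. Of the 39, 37 were well above background on all 4 arrays and could be compared, as could 20655 of all named genes.

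The tissue was prefrontal cortex of B6J mice aged 3 months, and the 4 groups combined 2 diets with 2 genotypes. They were wild-type mice on a starch diet, wild-type mice on a sucrose diet, Glo1 heterozygous mice on starch and Glo1 heterozygous mice on sucrose. Feeding began at weaning, on postnatal day 21, and lasted about 70 days. Glo1 encodes glyoxalase 1, which detoxifies methylglyoxal, and how its allele was made is not given in the sources used here. Each group was 1 pool of RNA from 3 mice on 1 one-colour Agilent array, so no difference below has a replicate check or a p-value.

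GABA-A receptors are chloride channels of 5 subunits that mediate fast inhibition, and their alpha, gamma and delta subunits set where the receptor sits and which drugs it binds. GABA-B receptors are paired G-protein-coupled receptors for slower inhibition. AMPA, kainate and NMDA receptors are cation channels of 4 subunits that carry fast excitation, with NMDA receptors admitting calcium during synaptic plasticity. Metabotropic glutamate receptors signal through G proteins, group I mainly after the synapse and groups II and III mainly as brakes on release.

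Signal is given as a multiple of each array's 75th percentile (the scaled signal), and a change as a log2 difference of scaled signals. A change counts as past the fold threshold at 1.5-fold, a log2 change of 0.58. The only error the arrays hold is that of repeated spots. Over 289 repeated probes in the brightest quartile of genes, the SD of a difference between single spots was 0.07 on the log2 scale. In the dimmer quartiles it was 0.11, 0.12 and 0.13, from 4, 4 and 2 repeated probes. Of the 37 measured subunits, 15 lay in the brightest quartile of signal, 15 in the next, 5 in the one below and 2 in the dimmest. This error covers spots, not mice.

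The arrays were alike in depth of signal, with 77.6% to 80.2% of spots well above background and no saturated spot. All 4 lay on 1 slide, so position on the slide and group cannot be told apart. Glo1 had a scaled signal of 4.04 and 5.53 on the wild-type starch and sucrose arrays, and 2.74 and 3.04 on the heterozygous ones, lower in the heterozygous group on both diets. Every gene of a list of 10 cortical excitatory neuron markers was well above background on all arrays. Markers of neighbouring tissue were also present and uneven. The summed scaled signal of 12 striatal markers was 43.1 and 68.1 in the wild-type starch and sucrose pools, and 62.8 and 38.2 in heterozygous mice. That of 9 choroid plexus markers was 1.26 and 2.51 in wild-type mice, and 1.32 and 72.2 in heterozygous mice. That of 8 olfactory bulb markers was 13.8 and 5.18 in wild-type mice, and 12.5 and 8.48 in heterozygous mice. That of 10 hippocampal markers, a list written after values had been seen, was 5.90 and 6.14 in wild-type mice, and 6.90 and 14.7 in heterozygous mice. Without Zbtb20, which made up most of that sum, it was 0.956 and 1.31 in wild-type mice, and 0.835 and 5.74 in heterozygous mice. None of the striatal, choroid plexus or olfactory bulb markers and 1 of the hippocampal markers (Iyd) fell below background on some array. In bulk tissue, fewer cells of a type and less RNA per cell cannot be told apart.

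The probes on which the main values rest are shown first, because for some subunits the probes agreed and for others they did not. Each line gives the first 30 of a probe's 60 bases, 5′ to 3′, as the files list them, with the position on build mm9. The capitals mark the 29 bases that the first Gabra2 probe shares with the end of the second, so those 2 probes are not independent readings.
Gabra5 A_55_P2806920 (chr7:64663070-64663127, minus strand): gcccctgtacatatttcatgattggattat
Gabra5 A_55_P2905230 (chr7:64668976-64669021, minus strand): aatttcccacatttaactactttacaaaga
Gria1 A_55_P2917255 (chr11:57141228-57141287, plus strand): agaaatgaaacaccccctccaaccaccaca
Gria1 A_66_P116640 (chr11:57102852-57102911, plus strand): aaatctaaaggcaaatatgcctacctcctg
Grik4 A_51_P384994 (chr9:42328570-42328629, minus strand): gccgagagagcagtccaagaattgatggtg
Grin2a A_52_P62744 (chr16:9991772-9991831, minus strand): tctccacttttctctcttcggtaaagtgat
Grin2a A_55_P1980481 (chr16:9577803-9577862, minus strand): ggtaaacgttggatgtccaatagcacccta
Gabra2 A_55_P2027900 (chr5:71352275-71352334, minus strand): TCAGCTCACTTCAATCATTGGAAACTACCt
Gabra2 A_55_P2177351 (chr5:71352306-71352365, minus strand): cagagtttatttgaaagtagtaatgaacct
Gabra2 A_52_P336171 (chr5:71350022-71350081, minus strand): taatgacattatgataagttagacgtccca
Gabra2 A_55_P2731551 (chr5:71350908-71350967, minus strand): catgatttgtactcataccagggtcacagc

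No receptor subunit measured on all arrays was 2-fold different between any 2 groups, and 3 of 37 passed 1.5-fold in at least 1 of the 4 pairwise comparisons: Gabra5, Grik4 and Grin2a. All 3 were differences upward, with sucrose or in the heterozygous group. Over all genes tested, 12.5% passed 1.5-fold in at least 1 of these comparisons. By comparison, 0 subunits passed for sucrose against starch in wild-type mice (5.93% of all genes), 1 in heterozygous mice (Grik4, 5.57%), 1 for heterozygous against wild-type on starch (Grin2a, 3.97%) and 1 on sucrose (Gabra5, 4.58%). The subunits are brighter than most genes, and among the 10327 genes above the median signal the same shares were 1.59%, 1.48%, 0.862% and 0.978%. At 2-fold the shares of all genes were 1.48% and 1.77% for diet in wild-type and heterozygous mice, and 0.813% and 1.71% for genotype on starch and on sucrose. The counts of subunits are too small to set them apart from these shares.

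The subunits as a whole had medians close to those of all genes. Their median change with sucrose was 0.07 in the wild-type and 0.00 in the heterozygous pools, beside -0.00 and 0.00 over all genes. Their median genotype change was -0.01 on starch and -0.05 on sucrose, beside -0.02 and -0.02. With sucrose 25 of 37 were above 0 in wild-type mice, against 49.9% of all genes, and 21 in heterozygous mice, against 50.1%. With the heterozygous genotype 17 were above 0 on starch and 15 on sucrose, against 46.0% and 45.1% of all genes. The range of a subunit over the 4 arrays had a median of 0.30 on the log2 scale, from 0.07 for Gria3 to 0.83 for Grik4. The median range was 0.27 over all genes and 0.18 over the brightest quartile of genes. The range was under 0.3 for 18 of 37 subunits and for 56.6% of all genes. The wild-type sucrose array held the highest signal of 14 subunits and the heterozygous sucrose array that of 12, against 8 for wild-type starch and 3 for heterozygous starch. Over all genes the same arrays held the highest signal of 26.6%, 21.7%, 31.4% and 20.2%.

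**Figure D1:**
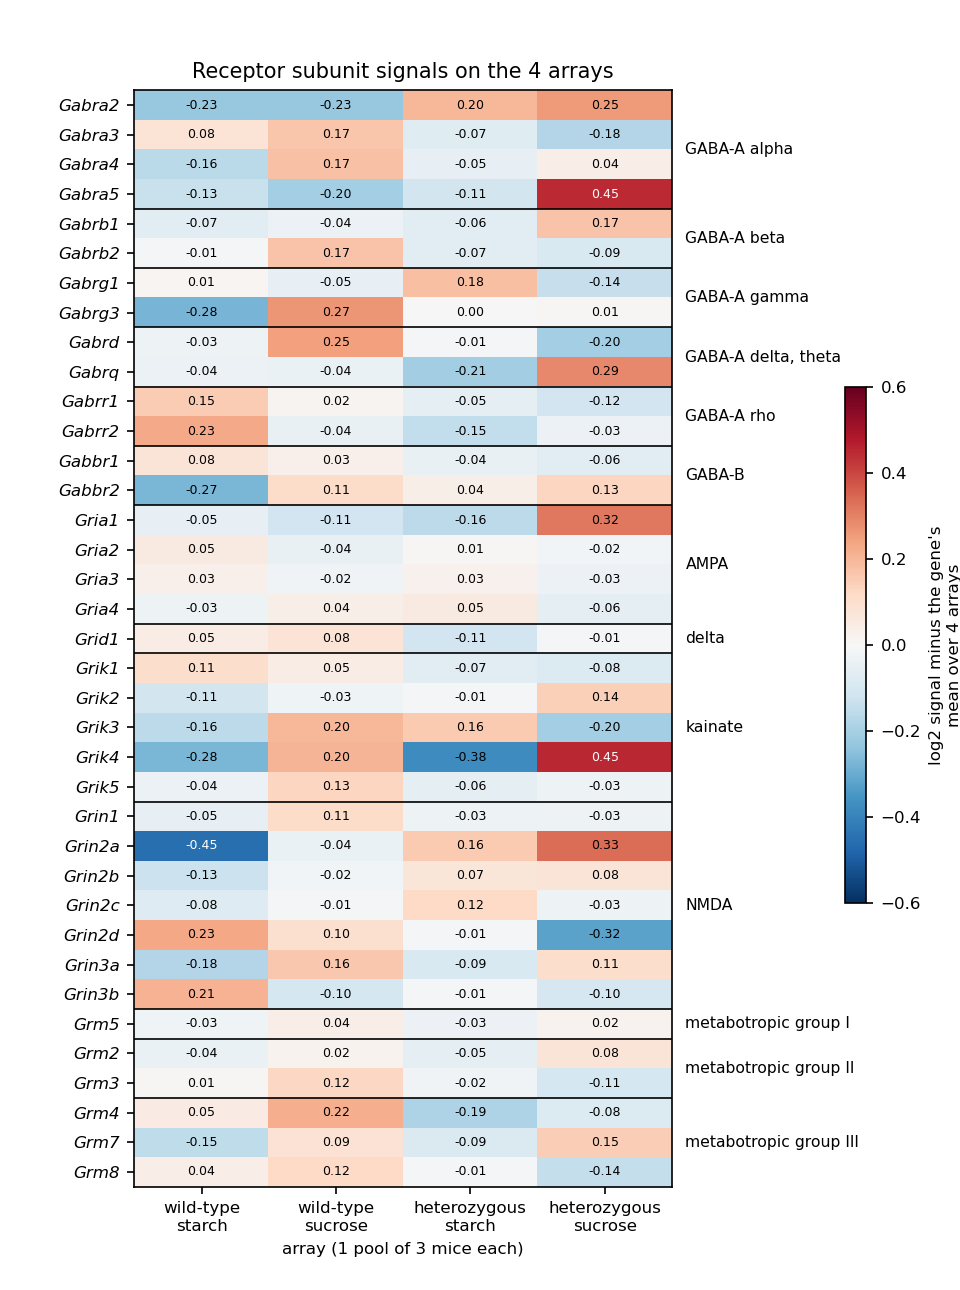
Log2 scaled signal of each of the 37 measured subunits (rows, grouped by receptor class) on the 4 arrays (columns), as the difference from the gene's mean over the arrays, on a colour scale in log2 units. Most rows are pale, and the strongest colours are those of Grik4, Grin2a and Gabra5, all highest on the heterozygous sucrose array.

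**Figure D2:**
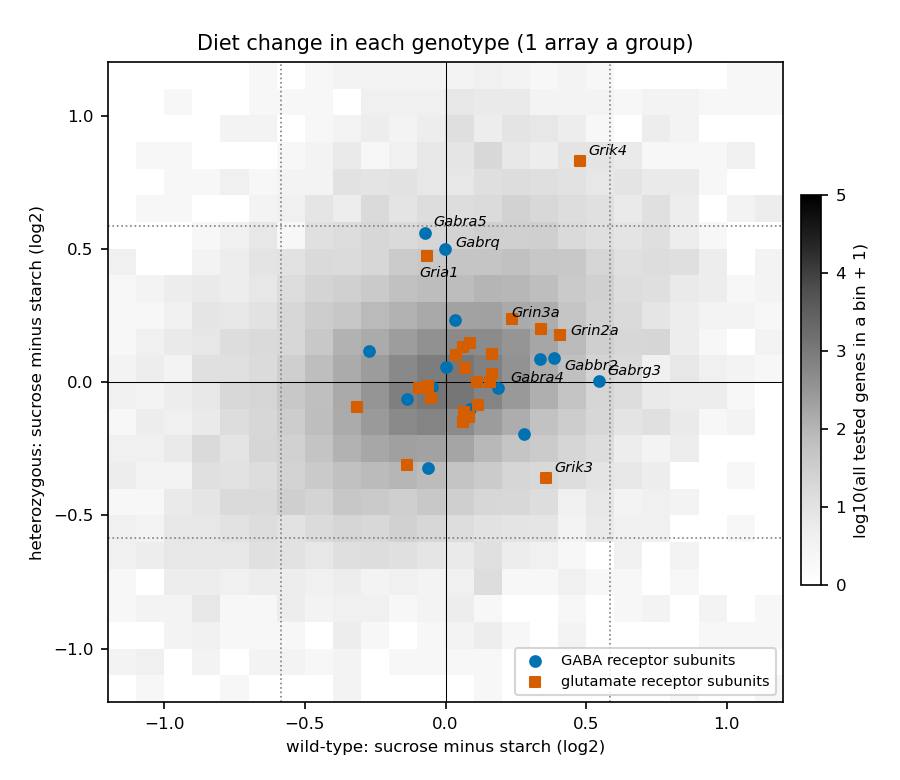
Change with sucrose in wild-type mice (horizontal axis) and in heterozygous mice (vertical axis), both log2, for GABA receptor subunits (circles) and glutamate receptor subunits (squares). The grey grid counts all tested genes within the axes on a log10 scale, and dotted lines mark 1.5-fold. Grik4 is the only subunit past a dotted line, and Gabra5, Gabrq and Gria1 lie close together above 0 on the vertical axis only.

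Among the GABA-A alpha subunits, which form the agonist site together with beta subunits, Gabra5 and Gabra2 had the widest ranges among the 4 that were measured on all arrays. Gabra5, known for extrasynaptic receptors and for high expression in the hippocampus, had a scaled signal of 8.54 and 8.12 in the wild-type starch and sucrose pools, and 8.66 and 12.8 in heterozygous mice. Only the heterozygous sucrose array stood apart. Gabra5 was thus higher by 0.65 in heterozygous than in wild-type mice on sucrose and by 0.02 on starch. Its change with sucrose was -0.07 in the wild-type and 0.56 in the heterozygous pools. The other Gabra5 probe, which shares no bases with the first, gave 1.16, 1.07, 1.18 and 1.78 in the same order, with a genotype change on sucrose of 0.73. Both probes thus put the same single array above the other 3.

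Gabra2, the alpha subunit of many synaptic receptors in cortex, is named here because its values were noticed after they were seen. It had a scaled signal of 2.06 and 2.06 in the wild-type starch and sucrose pools, and 2.76 and 2.87 in heterozygous mice. Both heterozygous arrays were above both wild-type arrays, and diet made little difference in either genotype. The genotype change was 0.43 on starch and 0.48 on sucrose, comparisons that share no array. All 4 Gabra2 probes were higher in heterozygous mice on both diets, by 0.18 to 0.43 on starch and by 0.27 to 0.48 on sucrose. The labels give strain B6J for both genotypes. The strain background of the Glo1 allele is not given in the sources used here, and the genotype at Gabra2 was not examined. Gabra2 expression is known to differ between C57BL/6J and related strains, and the part of strain background in this difference was not tested.

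Gabra3 had a genotype change of -0.15 on starch and -0.34 on sucrose, and both of its measured probes were lower in heterozygous mice on both diets. Gabra4, which pairs with the delta subunit in forebrain, had a change with sucrose of 0.34 in the wild-type and 0.09 in the heterozygous pools. Its 2 probes disagreed on the direction of the wild-type diet change and of the genotype change on starch. Gabra6, an alpha subunit typical of cerebellar granule cells, was well above background on the 2 sucrose arrays only. Its scaled signal there was 0.00649 in the wild-type and 0.0103 in the heterozygous pools. Against the detection limit of the heterozygous starch array, it was at least 1.54-fold higher with sucrose in heterozygous mice. For that bound the dim array was given its own signal for the probe or, where that is lower, the lowest signal it showed for any probe well above background. In wild-type mice no bound could be given, because the signal on sucrose lay under that limit of the starch array, 0.00654.

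Of the beta subunits, Gabrb2 had the wider range. Its scaled signal was 13.1 and 14.9 in the wild-type starch and sucrose pools, and 12.6 and 12.5 in heterozygous mice. The wild-type sucrose array was the highest, and the other 3 were close together. Its change with sucrose was 0.19 in the wild-type and -0.02 in the heterozygous pools. All 4 Gabrb2 probes were higher with sucrose in wild-type mice, by 0.19 to 0.38. Gabrb1 was within 0.24 on the log2 scale over the 4 arrays.

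The gamma subunit Gabrg3 had its main diet difference in wild-type mice. Gamma subunits anchor receptors at synapses and complete the benzodiazepine site. Gabrg3 had a scaled signal of 2.04 and 2.98 in the wild-type starch and sucrose pools, and 2.48 and 2.49 in heterozygous mice. The change with sucrose was 0.55 in the wild-type and 0.00 in the heterozygous pools, a difference between genotypes of -0.54. All 4 Gabrg3 probes gave a positive change in wild-type mice, from 0.30 to 0.64, and a difference between genotypes from -0.52 to -0.70. The difference was not tested. Gabrg1, also named after its values were seen, had a change with sucrose of -0.06 in the wild-type and -0.32 in the heterozygous pools by its brightest probe. All 5 of its probes were lower with sucrose in both genotypes, by as much as -0.83 in the wild-type and -0.64 in the heterozygous pools, the larger values from the dim probes.

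**Figure D3:**
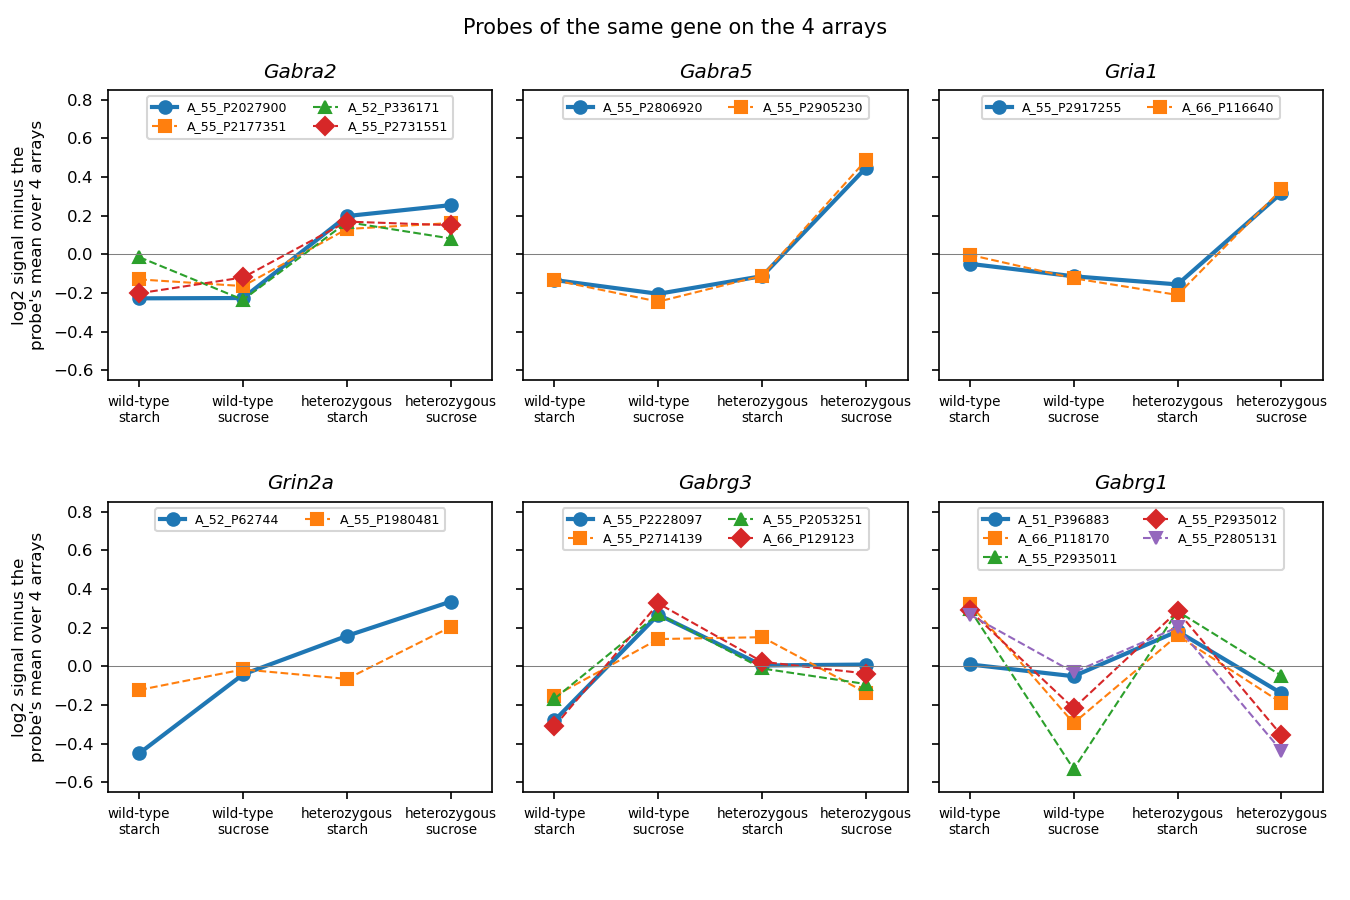
Log2 scaled signal of the measured probes of 6 subunits on the 4 arrays (for Grin2a, 2 probes), each probe as the difference from its own mean over the arrays, with 1 line per probe joining the 4 groups. The Gabra5 and Gria1 probes peak together on the heterozygous sucrose array and the Gabra2 probes are higher on both heterozygous arrays, while the 2 Grin2a probes lie apart on both starch arrays.

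Gabrd, the delta subunit of receptors for tonic inhibition, had a scaled signal of 8.0 and 9.71 in the wild-type starch and sucrose pools, and 8.11 and 7.10 in heterozygous mice. It had a single probe and is named after its values were seen. The wild-type sucrose array was the highest and the heterozygous sucrose array the lowest, a genotype change on sucrose of -0.45. The theta subunit Gabrq lay in the dimmest quartile, with a scaled signal of 0.0394 and 0.0393 in wild-type mice, and 0.0349 and 0.0494 in heterozygous mice. Its change with sucrose was 0.00 in size in the wild-type and 0.50 in the heterozygous pools, and normexp background correction lowered the latter to 0.21. The epsilon subunit Gabre was not well above background on any array, and no fold is given.

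Neither rho subunit, a type known from retina, passed 1.5-fold. Gabrr2 had a scaled signal of 0.639 and 0.529 in the wild-type starch and sucrose pools, and 0.492 and 0.533 in heterozygous mice. The wild-type starch array was the highest. For Gabrr2 the change with sucrose in wild-type mice was -0.27 and the genotype change on starch was -0.38. Gabrr1 was within 0.27 over the 4 arrays.

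Of the GABA-B subunits, Gabbr1, which binds the agonist, was within 0.14 on the log2 scale over the 4 arrays. Gabbr2, which couples to the G protein, had a scaled signal of 1.22 and 1.59 in the wild-type starch and sucrose pools, and 1.51 and 1.61 in heterozygous mice. The wild-type starch array was the lowest of the 4. The change with sucrose was 0.39 in the wild-type and 0.09 in the heterozygous pools.

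Among the AMPA receptor subunits Gria1 stood apart, while Gria2, Gria3 and Gria4 varied by 0.10, 0.07 and 0.11 on the log2 scale over the arrays. Gria1 encodes GluA1, the subunit inserted at synapses during potentiation. Its scaled signal was 25.1 and 24.0 in the wild-type starch and sucrose pools, and 23.3 and 32.3 in heterozygous mice. As for Gabra5, only the heterozygous sucrose array was high. The change with sucrose was -0.06 in the wild-type and 0.47 in the heterozygous pools, and the genotype change on sucrose was 0.43. The other Gria1 probe gave a change with sucrose of -0.12 and 0.55. The product of Gria2 makes AMPA receptors impermeable to calcium. The delta receptor gene Grid1 was within 0.20 over the 4 arrays.

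The kainate receptors held the subunit with the widest range, Grik4, which encodes the high-affinity subunit GluK4 and is known for expression in hippocampal field CA3. Grik4 had a scaled signal of 2.27 and 3.16 in the wild-type starch and sucrose pools, and 2.11 and 3.75 in heterozygous mice. Both sucrose arrays were above both starch arrays. The change with sucrose was 0.48 in the wild-type and 0.83 in the heterozygous pools, comparisons that share no array. Grik4 rests on a single probe. Under the 6 alternatives tried for single subunits the heterozygous change stayed between 0.80 and 0.85. Some of these could hardly change it. The mean over probes is that same probe, no subunit spot was an outlier, and the deposited table holds the same signal.

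Grik3, a low-affinity kainate subunit with a single probe, had opposite diet differences in the 2 genotypes and is named after its values were seen. Its scaled signal was 2.32 and 2.97 in the wild-type starch and sucrose pools, and 2.88 and 2.25 in heterozygous mice. The wild-type sucrose and heterozygous starch arrays were the high pair. The change with sucrose was 0.36 in the wild-type and -0.36 in the heterozygous pools, a difference between genotypes of -0.72. By their brightest probes Grik1, Grik2 and Grik5 were within 0.19, 0.26 and 0.19 over the 4 arrays.

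The NMDA receptor subunit Grin2a was highest in heterozygous mice on its brightest probe, and its probes did not agree in size. Grin2a encodes GluN2A, which replaces GluN2B at many synapses as the brain matures. The brightest probe gave a scaled signal of 2.16 and 2.87 in the wild-type starch and sucrose pools, and 3.30 and 3.73 in heterozygous mice. On that probe the genotype change was 0.61 on starch and 0.38 on sucrose. A second probe, which lies 3′ of the first in the gene, gave 0.06 on starch and 0.22 on sucrose. With the mean over all measured Grin2a probes the change on starch was 0.24, which is not past 1.5-fold. Of the measured Grin2a probes, the brightest alone passed 1.5-fold on starch, so the call rests on that probe. Both of these probes were higher with sucrose in both genotypes, by 0.41 and 0.11 in wild-type and by 0.18 and 0.27 in heterozygous mice.

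By their brightest probes the obligatory NMDA subunit Grin1 was within 0.16 over the arrays, and Grin2b and Grin2c within 0.21 and 0.20. Other probes of Grin1 and Grin2b varied more. The genotype change on starch ran from 0.01 to 0.54 over 3 Grin1 probes, and from -0.04 to 0.32 over 3 Grin2b probes. Grin2d, a subunit of early development and of interneurons, is named after its values were seen. Its scaled signal was 2.19 and 1.99 in the wild-type starch and sucrose pools, and 1.85 and 1.49 in heterozygous mice. The heterozygous sucrose array was the lowest and wild-type starch the highest, a difference of -0.55 between them. Grin3a had a change with sucrose of 0.34 in the wild-type and 0.20 in the heterozygous pools, while its other measured probe, a dim one, gave -0.23 and -0.37. Grin3b lay in the dimmest quartile and had changes of -0.31 and -0.09.

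No metabotropic receptor passed 1.5-fold in any comparison. Grm5, the group I receptor measured, was within 0.07 over the 4 arrays. In group II, whose receptors reduce transmitter release, Grm3 had a scaled signal of 2.34 and 2.53 in the wild-type starch and sucrose pools, and 2.29 and 2.16 in heterozygous mice, a range of 0.23. Grm2 was within 0.13. In group III, Grm4 had a scaled signal of 0.431 and 0.484 in wild-type mice, and 0.366 and 0.394 in heterozygous mice. Both heterozygous arrays were below both wild-type arrays, with a genotype change of -0.24 on starch and -0.30 on sucrose. Grm4 lies on chromosome 17, as does Glo1, and the part of sequence linked to Glo1 in this change was not tested. By its brightest probe Grm7 had a change with sucrose of 0.24 in both genotypes, and 2 of its 4 measured probes were lower with sucrose in heterozygous mice. Grm8 had a genotype change on sucrose of -0.27.

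Comparing heterozygous sucrose with wild-type starch mice, the groups that differ in both factors, 2 subunits passed 1.5-fold, against 7.32% of all genes. They were Grin2a, at 0.79, and Grik4, at 0.73. With the mean over probes Grin2a was at 0.50, no longer past 1.5-fold, and Gabra5 passed in its place. None passed 2-fold, against 2% of all genes. The diet change differed between genotypes by more than 1.5-fold for Gabra5, at 0.63, and Grik3, at -0.72, against 8.45% of all genes, and none by more than 2-fold, against 2.88%. The median of that difference was -0.06 over the subunits and 0.00 over all genes. With the mean over a gene's probes 5 subunits passed it, against 8.84% of all genes: Gabra5, Gabrb2, Gabrg3, Gria1 and Grik3. For Gabrb2 this rested on a dim probe, at -1.53, while its other probes gave -0.21 to -0.32.

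The 2 diet comparisons share no array, nor do the 2 genotype comparisons, so a change of at least 0.32 (log2) in the same direction in both was also counted, a rule set after values had been seen. Grik4 was higher with sucrose in both genotypes, against 2.86% of all genes, and no subunit was lower, against 2.58%. Gabra2 and Grin2a were higher in heterozygous mice on both diets, against 1.18%, and no subunit was lower, against 1.34%. With the mean over probes Gabrg1 was lower with sucrose in both genotypes, against 2.52% of all genes. Neither Gabra2 nor Grin2a then reached 0.32 on both diets, which 1.17% of all genes did upward. Probes of 1 gene often disagreed in direction. Of the 25 subunits with at least 2 measured probes, all probes pointed one way for 12 and 14 in the diet comparisons of wild-type and heterozygous mice, and for 13 and 16 in the genotype comparisons on starch and sucrose.

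The subunits were also set beside the markers of neighbouring regions. The striatal list, of genes such as Drd1, Adora2a and Penk, had a median change with sucrose of 0.85 in the wild-type and -0.86 in the heterozygous pools, and a median genotype change of 0.69 on starch and -1.19 on sucrose. Gabrd, Gria4, Grik3 and Grin2c were above the other 2 arrays on both the wild-type sucrose and the heterozygous starch array. These were 4 of 37 subunits, 10.8%, against 11.9% of all genes, a share near the background. Apart from Grik3, each met the pattern by a margin no larger than the SD of repeated spots, 0.07. For Gabrd the genotype change on starch was 0.02, and for Grin2c that on sucrose was -0.02. For Gria4 the change with sucrose in wild-type mice was 0.07. The hippocampal list, of genes such as Prox1, Lct and Spink8, had a median change with sucrose of 0.29 in the wild-type and 2.12 in the heterozygous pools, over 9 genes. The choroid plexus list had 0.40 and 4.11. Gabra5, Gabrq and Gria1 were above each other array by at least 0.32 on the heterozygous sucrose array, as 3 of 37 subunits, 8.11%, against 3.42% of all genes. For Gabrq the differences were close to that limit, and with normexp background correction it was 0.14 above wild-type sucrose and 0.05 above wild-type starch, which leaves Gabra5 and Gria1. These array patterns were chosen after values had been seen. The part of striatal, hippocampal or choroid plexus RNA in the values of these subunits and of Grik4 was not tested.

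**Figure D4:**
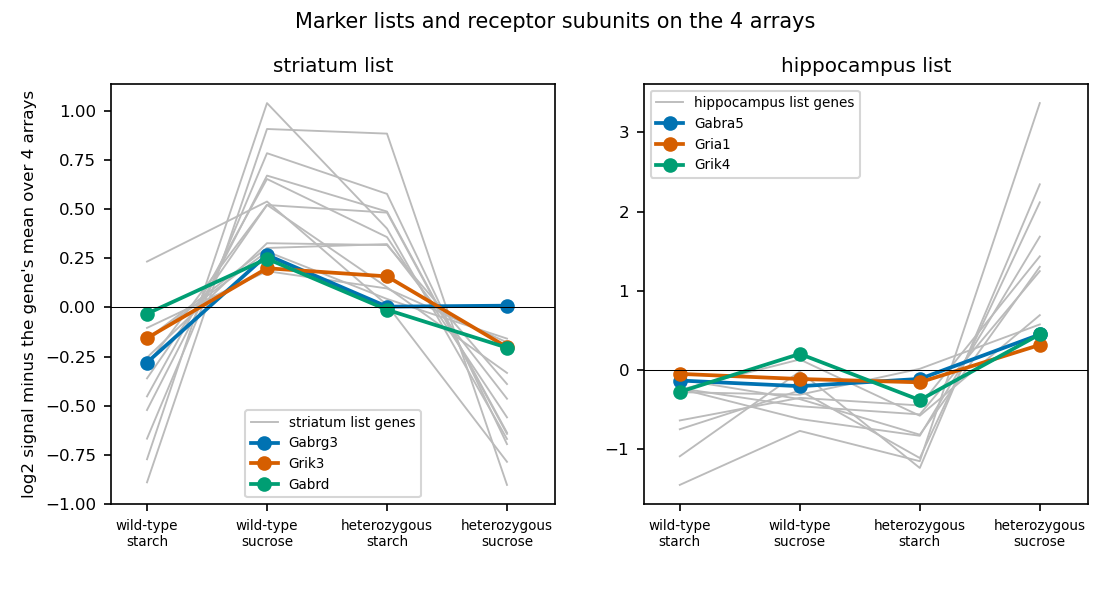
Log2 scaled signal of marker genes (thin grey lines, 1 per gene) and of 3 receptor subunits in each panel (coloured lines and points) on the 4 arrays, each as the difference from its mean over the arrays, for the striatal list (left) and the hippocampal list (right). Lines only join the values of a gene. Grik3 is high on the arrays where striatal markers are high, and Gabra5, Gria1 and Grik4 are highest on the heterozygous sucrose array, where hippocampal markers are highest. Unlike Gabra5 and Gria1, Grik4 is also higher on the wild-type sucrose array than on both starch arrays.

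Other proteins of these synapses were counted in the same way. Of 47 genes for auxiliary subunits, scaffolds and transmitter synthesis or transport, all 47 were measured and 7 passed 1.5-fold in at least 1 pairwise comparison, 14.9% against 12.5% of all genes. By list these were 3 of 18 auxiliary genes, 2 of 16 scaffold genes and 2 of 13 transmitter genes. With sucrose in wild-type mice (5.93% of all genes), 1 gene of each list was past 1.5-fold lower and none higher. With sucrose in heterozygous mice (5.57%), 1 gene of each list was lower, and 1 auxiliary and 1 scaffold gene were higher. By genotype on starch (3.97%), 1 transmitter gene was lower and none of the others passed. By genotype on sucrose (4.58%), 3 auxiliary genes and 1 scaffold gene were higher and none lower. The part of RNA from neighbouring tissue in these counts, and in the genes named below, was not tested.

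Kctd12, an auxiliary subunit of GABA-B receptors, had 2 measured probes that agreed. Its scaled signal was 2.22 and 1.81 in the wild-type starch and sucrose pools, and 2.25 and 2.76 in heterozygous mice. The genotype change on sucrose was 0.61, and 0.62 by its other probe. Cacng5, an AMPA receptor auxiliary subunit, was lower with sucrose in both genotypes, with scaled signals of 0.843 and 0.391 in wild-type mice and 0.994 and 0.649 in heterozygous mice. Shisa6, another AMPA receptor auxiliary protein, reached 2.27 on the heterozygous sucrose array against 0.499, 0.602 and 0.557 elsewhere, a genotype change on sucrose of 1.91. Its other probe gave 0.10.

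Of the scaffold genes, Grip2, which binds AMPA receptors, was lower with sucrose by 1.5-fold in both genotypes, at -0.69 and -0.59, and by -0.14 and -0.24 on its other probe. Homer3, which links group I metabotropic receptors to calcium stores, was higher in heterozygous mice on sucrose, at 0.94, and at 0.38 on its other probe. Of the transmitter genes, the GABA transporter Slc6a11 had a scaled signal of 0.691 on the wild-type starch array and of 0.273, 0.255 and 0.263 on the others, so its changes of -1.34 with sucrose and -1.44 with genotype both rest on that 1 array. The vesicular glutamate transporter Slc17a6, typical of subcortical neurons, was lower with sucrose, at -0.37 in the wild-type and -0.72 in the heterozygous pools.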

How the data were processed

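The files were scanner output of 4 one-colour arrays, each holding 1 pool of RNA from 3 mice, of which 200 ng was labelled with Cy3, per the labels' protocols. The deposited intensity values were the processed signals of Agilent Feature Extraction 11.5.1.1, per the submitters' processing notes. The authors also deposited a table with 1 ratio per spot. All 62976 values of each array were within 0.001 of the processed signal over the file's own 75th percentile, and the column medians were 0.0763, 0.0755, 0.0759 and 0.0777.

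Here the log2 processed signal was reduced by the log2 of the 75th percentile of that array's non-control spots. Control and outlier spots were left out, and spots of a probe were averaged. For each gene the brightest probe was used, among those well above background on all 4 arrays. Preferring such probes was decided after the first counts were seen. The groups came from the sample labels. Differences of single arrays were counted at 1.5-fold, with 2-fold as an alternative. No test across samples was run. An additive fit of diet and genotype, which would take the difference between diet changes as error, was not used. The computation used Python 3.11.15, pandas 2.3.3, R 4.3.3 and limma 3.58.1, the last for normexp correction (offset 50) and quantile normalization. Counting was tested on simulated data. Other alternatives were median scaling, the deposited table, the mean over probes, no filter on dim probes, only genes above the median signal, and outlier spots kept.

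The members, marker lists and pathway lists were chosen with earlier results of these data known, and the hippocampal list, the rule of a log2 change of 0.32 in comparisons sharing no array and the array patterns after the values were seen. The rule for named genes gave values on every array for subunits past 1.5-fold in a pairwise comparison and for the subunit of widest range in each class of at least 2 measured members. It also took pathway genes past 1.5-fold. Other subunits were given by the range of their brightest probe, except those said to be named after their values were seen. Further exceptions were Gabra3, Gabra4, Grin3a, Grin3b, Grm7 and Grm8, for which changes were picked after they were seen. A further Grin2a probe, which enters the mean over probes, is not reported here. Probe coordinates are those of the files, on mm9, whose annotation was not used here, so exons and untranslated regions are not stated.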

Additional observations from a re-analysis of the deposited data

Results flagged for a closer look

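Gabra5 and Grik3 had diet changes of opposite sign in the 2 genotypes, with a difference between genotypes past 1.5-fold. For Gabra5 the difference was 0.63, from a change with sucrose of -0.07, about the SD of repeated spots, in the wild-type and 0.56 in the heterozygous pools. For Grik3 it was -0.72, from 0.36 and -0.36. With 1 array a group, neither difference was tested.

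Dim probes that did not represent their gene held larger differences than the probes used. A probe of Gabbr1 (A_55_P2719029), well above background on 2 arrays, had a change with sucrose of -1.11 in wild-type mice, where the brightest probe gave -0.05. A probe of Gabrb2 (A_52_P260709) had a change with sucrose of -1.15 in heterozygous mice and a genotype change on starch of 1.48, where the brightest probe gave -0.02 and -0.05. A probe of Grm4 (A_55_P2930341) had a change with sucrose of -2.69 in heterozygous mice, where the brightest probe gave 0.10. Its scaled signal was 0.0701 in heterozygous mice on starch. It was not well above background in wild-type mice on starch, a genotype difference of at least 10.7-fold on starch. Each of these rests on 1 spot an array.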

How the results depend on the processing

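No paired analysis was possible because pairing by replicate number needs 2 arrays a group, and each had 1. Under the alternatives, 88 values for the subunits as a whole stayed within limits and 14 moved, and for single subunits 376 stayed and 24 moved. The deposited table and the keeping of outlier spots could hardly move a subunit. The table holds the same signal, and no subunit spot was an outlier. Each gave 12 of the 88 values that stayed and 66 of the 376. The limit was 1.5 times for a count and the SD of repeated spots for a median or a gene. Scaling left the median of all genes within 0.1 on the log2 scale. At 2-fold no subunit passed in any comparison, a count of 0. Without the filter on dim probes the counts were 1 and 2 for diet in wild-type and heterozygous mice, 3 and 3 for genotype on starch and sucrose, and 4 for heterozygous sucrose against wild-type starch. The added genes were Gabra6 and Gabre, which were not measured on all arrays. Quantile normalization gave 2 for diet in heterozygous mice and 3 for heterozygous sucrose against wild-type starch, each adding Gabra5, and median scaling gave 3 for the latter, adding Grin2d. Without the filter the difference between diet changes gave 3, adding Gabra6. The mean over probes gave 0 for genotype on starch, where Grin2a was lost, and 5 for the difference between diet changes. In heterozygous sucrose against wild-type starch it left the count at 2 with Gabra5 in place of Grin2a. For subunits above the median signal the median difference between diet changes was -0.15. Pooling and single arrays limit precision, and dim probes are the least certain.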

Other observations

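Immediate early genes are those that neurons induce on activity, and most were lower with sucrose. Of 11 genes, 10 were below 0 in wild-type and 11 in heterozygous mice. Their median was -0.51 in the wild-type and -0.87 in the heterozygous pools, and 5 and 8 of them were past 1.5-fold lower, where 5.93% and 5.57% of all genes passed it in either direction. Olfactory bulb markers had a median change with sucrose of -2.13 in the wild-type and -0.71 in the heterozygous pools over 8 genes. Their median genotype change was -0.04 on starch and 1.15 on sucrose.

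Lists of cortical cell markers had smaller median changes, while single genes moved more. With sucrose in wild-type mice Calb2 was at -1.60 and Foxp2 at 1.28. The median change with sucrose of 10 cortical excitatory neuron markers was 0.27 in the wild-type and -0.05 in the heterozygous pools. That of 10 interneuron markers was -0.03 and -0.07, that of 8 astrocyte markers -0.14 and -0.11, and that of 9 oligodendrocyte markers -0.12 and -0.08.

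Genes of the hypothalamus and pituitary list went in different directions with sucrose. Over the 7 of its 9 genes that were well above background on all arrays, changes ran from -2.59 to 1.60 in wild-type mice and from -3.33 to 0.95 in heterozygous mice, with medians of 0.07 and 0.09. In wild-type mice 1 gene was past 1.5-fold higher and 3 lower, and in heterozygous mice 1 higher and 2 lower. The part of any of these lists in the subunits' values was not tested.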
